A study of Mus musculus with 2 samples.

Results

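Gdf15 encodes growth differentiation factor 15, and it is 1 of the 31053 genes in the feature tables of both libraries. It was read as the row with that symbol and identifier ENSMUSG00000038508 in each matrix. The gene was chosen by its measured levels over cell classes in these same libraries, so its levels below are a description and carry no test. The study profiled kidney cortex of mice 16 weeks old by droplet single-cell RNA sequencing, in 2 libraries. The PT I-PpoI library came from mice that, per the series title, express the homing endonuclease I-PpoI in proximal tubular epithelial cells. I-PpoI cuts DNA at a few fixed genomic sites and so makes double-strand breaks. The wild type library came from mice without that label. The labels name neither the promoter that drives I-PpoI nor the number of mice behind a library. With 1 library per group there was no replicate check, so intervals cover counting error only and no difference was tested.

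GDF15 is a secreted hormone of the TGF-β superfamily that many cell types make under stress. Its gene is a known target of ATF4 and CHOP (Ddit3) in the integrated stress response and of p53 after DNA damage. The dimer is cut from its precursor by furin-type convertases. It signals through GFRAL, a receptor of the hindbrain that works with the co-receptor RET. In the kidney it is known from stressed tubules and from the collecting duct.

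Cells were called from 93257620 UMIs (unique molecular identifiers, each standing for 1 captured transcript) in PT I-PpoI, against 107977310 in wild type. After filters, 5096 cells of PT I-PpoI and 11963 of wild type were kept, with medians of 11048 and 2687 UMIs per cell, so depth differed by library. The libraries shared 22 kept barcodes. Cells fell into 34 clusters, which were named from markers, and each class name below means "like" that cell type. 13 named classes had 50 or more cells in each library. For 12 of these every listed marker was read in both libraries, while the parietal class lacked 1 of 10 in wild type. A marker counted as read with any UMI, which RNA from outside cells can supply, so this count does not check the names. In wild type, all 22 proximal tubule markers were also read in clusters 3 and 18, both named principal. The proximal tubule (PT) class held 167 cells, 3.28% of those kept, in PT I-PpoI and 5928 cells, 49.6%, in wild type.

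In the mouse genome (GRCm38, mm10) Gdf15 lies at chr8:70629393-70632456 on the minus strand. GENCODE M21 gives it 2 transcripts, of 2 and 3 exons, and no other annotated gene overlaps it. The sequence just upstream of every annotated start is shown because ATF4, AP-1, EGR1 and p53 factors are the known or listed stress regulators discussed below. It spans chr8:70632471-70632706 (RefSeq, GRCm38.p6, minus strand, 5′ to 3′). The other stretch, chr8:70632161-70632190, holds an E-box in capitals, 83 bases before the inner transcript start and inside the first exon of the longer transcript.
upstream: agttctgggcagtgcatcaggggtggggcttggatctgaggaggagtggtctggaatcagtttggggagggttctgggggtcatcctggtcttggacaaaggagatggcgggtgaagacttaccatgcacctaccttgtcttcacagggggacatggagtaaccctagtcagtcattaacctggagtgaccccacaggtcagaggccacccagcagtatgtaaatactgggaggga
E-box: cacagggcagggCACGTGtgagcatccagt

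Both windows of 300 bases that RefSeq starts give for Gdf15 were searched on both strands for 7 motifs. The E-box CACGTG was the one match, and it stands in 7.15% of all 32851 promoter windows of that length. The AP-1 site TGANTCA (in 7.81% of windows), the CRE TGACGTCA (1.79%), the CARE TGATGNAA (3.97%), the EGR site GCGNGGGCG (5.55%), the heat shock element GAANNTTC (7.86%) and the p53 half-site (8.36%) had no match. A missing match says only that these letters are absent from these windows.

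Gdf15 was highest in the thin limb and the principal class of the collecting duct in both libraries, and its level in the proximal tubule was far lower. Levels are given as CPM, the UMIs of the gene scaled to 1000000 UMIs of the class. The thin limb class, cells of the loop of Henle marked by Fst and Bst1, stood highest at 750 CPM (711 to 792) in PT I-PpoI and 604 CPM (551 to 662) in wild type. Principal cells, the Aqp2-expressing cells that reabsorb water in the collecting duct, followed at 448 CPM (434 to 462) in PT I-PpoI and 502 CPM (470 to 535) in wild type. Parietal cells, which line Bowman's capsule, held 171 CPM (152 to 192) in PT I-PpoI and 121 CPM (98.8 to 147) in wild type. The order of these 3 classes was the same in both libraries, and neighbouring intervals did not overlap. The order of the first pair depended on which cells were named principal. With doublets kept, when most cells of the lower principal cluster lost that name, thin limb and principal cells held 762 and 709.5 CPM in PT I-PpoI, against 604 and 756 CPM in wild type. The thin limb and principal classes made up 1.55% and 8.71% of cells in PT I-PpoI, against 0.560% and 1.49% in wild type. Together with their depth, that gave them 19.0% and 55.5% of all kept Gdf15 UMIs in PT I-PpoI, against 16.0% and 32.2% in wild type.

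**Figure D1:**
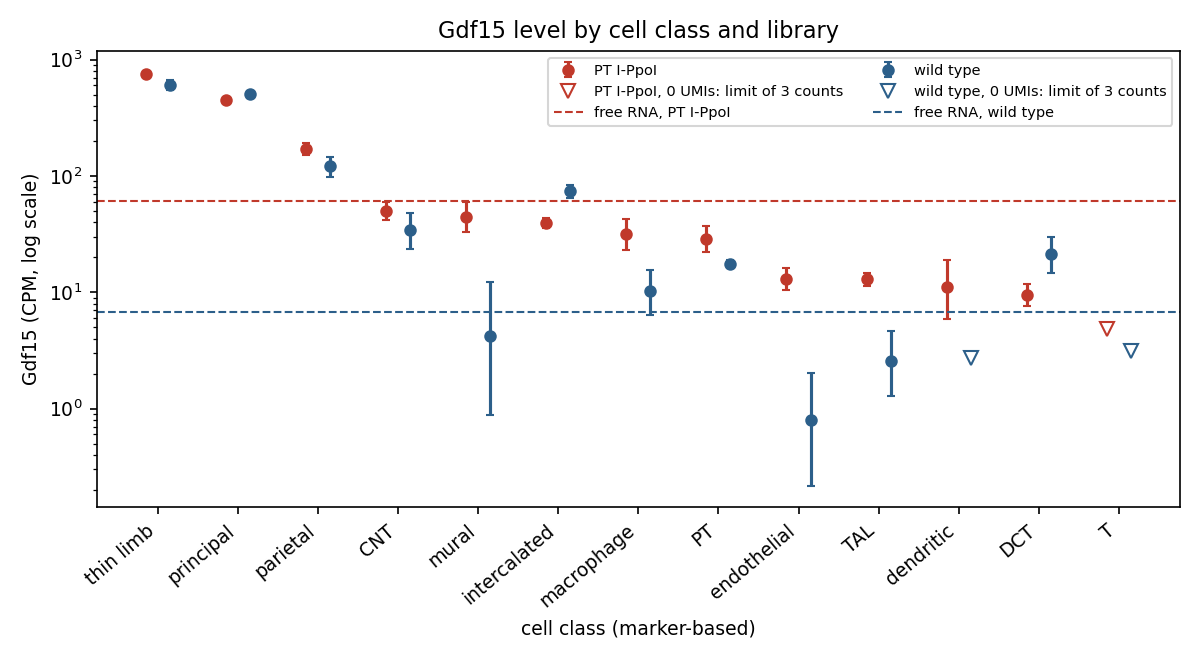
Gdf15 level (CPM, log scale) in the 13 classes with 50 or more cells per library, PT I-PpoI left and wild type right, with exact Poisson 95% intervals. Dashed lines mark Gdf15 in free RNA, 60.5 CPM in PT I-PpoI and 6.82 CPM in wild type. The barcodes behind these lines were unlike in depth, with medians of 61 UMIs in PT I-PpoI and 256 UMIs in wild type. Open triangles mark the limit of 3 counts where no UMI was read. Thin limb, principal and parietal cells stand above both lines in both libraries.

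Below these 3 classes the order was less firm. Connecting tubule (CNT) cells, which precede the collecting duct, held 50.2 CPM (41.7 to 59.98) in PT I-PpoI and 34.3 CPM (23.5 to 48.5) in wild type. Intercalated cells, the acid-base regulating cells of the collecting duct, fell in 1 cluster and had 39.4 CPM (35.5 to 43.6) in PT I-PpoI and 73.9 CPM (65.3 to 83.4) in wild type. In PT I-PpoI the intervals of CNT, mural, intercalated and macrophage classes each overlapped the next in order, and the macrophage interval overlapped that of PT. In wild type intercalated cells stood above CNT cells with intervals apart, while CNT, distal convoluted tubule (DCT) and PT cells overlapped in order.

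PT cells, where I-PpoI is expressed per the title, held 28.97 CPM (22.1 to 37.4) from 59 UMIs in PT I-PpoI and 17.5 CPM (16.1 to 19.0) from 582 UMIs in wild type. The thick ascending limb (TAL), the salt-reabsorbing segment marked by Slc12a1 and Umod, held 13.0 CPM (11.4 to 14.7) in PT I-PpoI and 2.58 CPM (1.29 to 4.62) in wild type. DCT cells, marked by Slc12a3, held 9.54 CPM (7.59 to 11.8) in PT I-PpoI and 21.3 CPM (14.7 to 29.9) in wild type. In all 3 segments Gdf15 was thus far below its level in the thin limb and principal classes.

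In the named immune and vascular classes Gdf15 rested on few UMIs. They leave out the unnamed cluster 12 described below, which carried endothelial markers and held 347 CPM in PT I-PpoI and 472 CPM in wild type. Macrophages held 31.7 CPM (23.1 to 42.4) in PT I-PpoI and 10.3 CPM (6.36 to 15.7) in wild type, and 13 of their UMIs sat in 1 cell in each library, of 45 and 21. Mural cells, the smooth muscle and renin cells of vessels, held 44.5 CPM (32.7 to 59.2) in PT I-PpoI and 4.24 CPM (0.873 to 12.4) in wild type. Endothelial cells held 13.0 CPM (10.4 to 16.1) in PT I-PpoI and 0.796 CPM (0.217 to 2.04) in wild type. Dendritic cells held 13 UMIs, 11.2 CPM, in PT I-PpoI, and no UMI in wild type, where 3 counts would be 2.74 CPM. T cells held no Gdf15 UMI in 126 cells of PT I-PpoI or in 373 cells of wild type, which allows up to 4.83 CPM in PT I-PpoI and 3.105 CPM in wild type. Podocytes were also without a UMI, in 45 cells of PT I-PpoI and 18 of wild type.

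The share of cells with a Gdf15 UMI put thin limb, principal and parietal cells in the same order once depth was made equal. Each cell was thinned at random to 2000 UMIs, and shallower cells were left out. Unless stated, thinned shares rest on a single draw, and their intervals leave out the chance of the draw. In thin limb cells the share was 51.3% (39.6 to 63.0, 76 cells) in PT I-PpoI, against 40.6% (28.5 to 53.6, 64 cells) in wild type. This gap depended on the draw. Another draw of the same thin limb cells gave 51.3% in PT I-PpoI, against 51.6% (38.7 to 64.2) in wild type. In principal cells it was 32.7% (28.4 to 37.3, 440 cells) in PT I-PpoI, against 33.5% (26.5 to 41.1, 173 cells) in wild type. In parietal cells it was 23.9% (15.4 to 34.1) in PT I-PpoI, against 18.2% (10.8 to 27.8) in wild type. In each of these 3 classes the intervals of the libraries overlapped.

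Without thinning the shares were 77.2% and 64.2% of thin limb cells, and 63.1% and 54.5% of principal cells, in PT I-PpoI and wild type. Median depth per cell was 17280 and 5607 UMIs in the thin limb class and 16062 and 7566 UMIs in the principal class of these libraries, so the unthinned shares follow depth as well as level. T cells, a class that should lack the gene, gave a thinned share of 0 of 119 cells in PT I-PpoI and 0 of 273 in wild type, which allows up to 2.52% and 1.10%. Their median depth was 4312 and 2371 UMIs.

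Thinned shares were small elsewhere. CNT cells had 9.27% (5.16 to 15.1) in PT I-PpoI, against 3.06% (0.636 to 8.69) in wild type. Intercalated cells had 4.35% (2.45 to 7.07) in PT I-PpoI, against 6.05% (3.26 to 10.1) in wild type. PT cells had 5.56% (2.57 to 10.3, 9 of 162 cells) in PT I-PpoI, against 2.53% (2.04 to 3.09, 92 of 3642 cells) in wild type. Another draw of the same PT cells gave a narrower gap, with 4.32% (1.75 to 8.70) in PT I-PpoI, against 2.83% (2.31 to 3.42) in wild type. The intervals of the libraries overlapped in each of these draws. TAL cells had 1.97% (1.28 to 2.90) in PT I-PpoI, which is below what T cells allow there, and 0 of 527 cells in wild type.

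**Figure D2:**
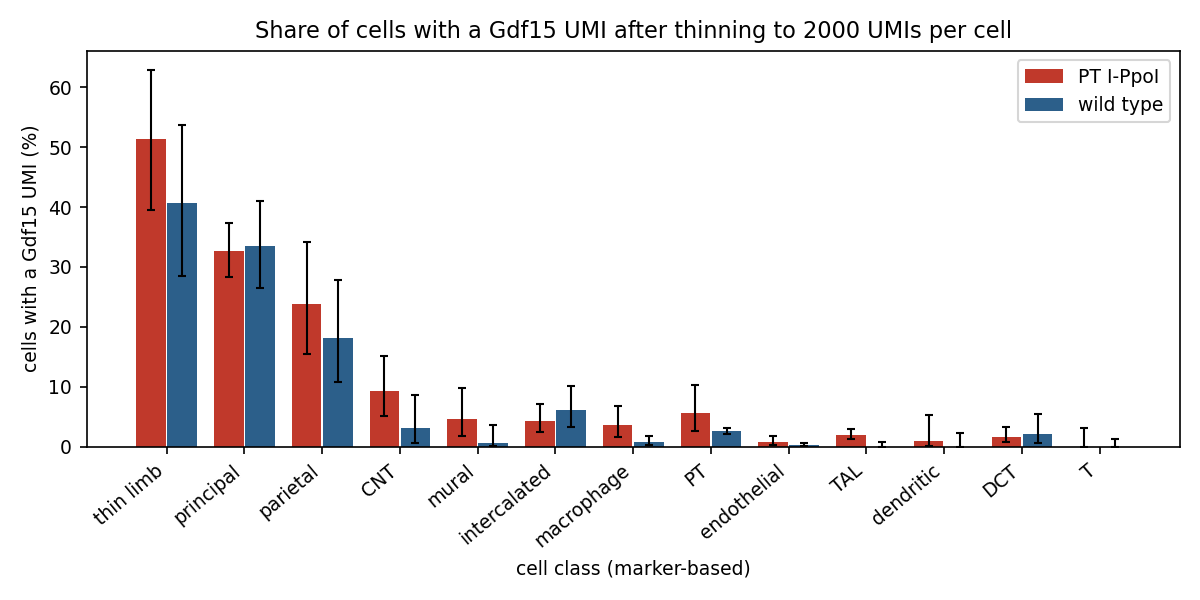
Percentage of cells with a Gdf15 UMI after thinning each cell to 2000 UMIs, by class, PT I-PpoI left and wild type right, with exact Clopper-Pearson 95% intervals. The shares come from a single random draw, and the intervals leave out the chance of the draw. Thin limb cells reach 51.3% in PT I-PpoI, against 40.6% in wild type, where another draw gave 51.6%. Most classes stay under 10%.

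Even in the high classes Gdf15 was uneven from cell to cell. Thin limb cells held a median of 5 Gdf15 UMIs and at most 177 in PT I-PpoI, against a median of 2 and at most 54 in wild type. The 10% of thin limb cells with the most UMIs held 52.0% of the class total in PT I-PpoI, against 53.1% in wild type, without any correction for cell depth. Principal cells held a median of 2 and at most 147 UMIs in PT I-PpoI, against a median of 1 and at most 114 in wild type. Their top 10% held 58.2% of the total in PT I-PpoI, against 65.3% in wild type. At equal depth, in the same single draw, 2 or more UMIs were held by 31.6% of thin limb cells in PT I-PpoI, against 28.1% in wild type. Among principal cells it was 17.7% in PT I-PpoI, against 17.9% in wild type.

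**Figure D3:**
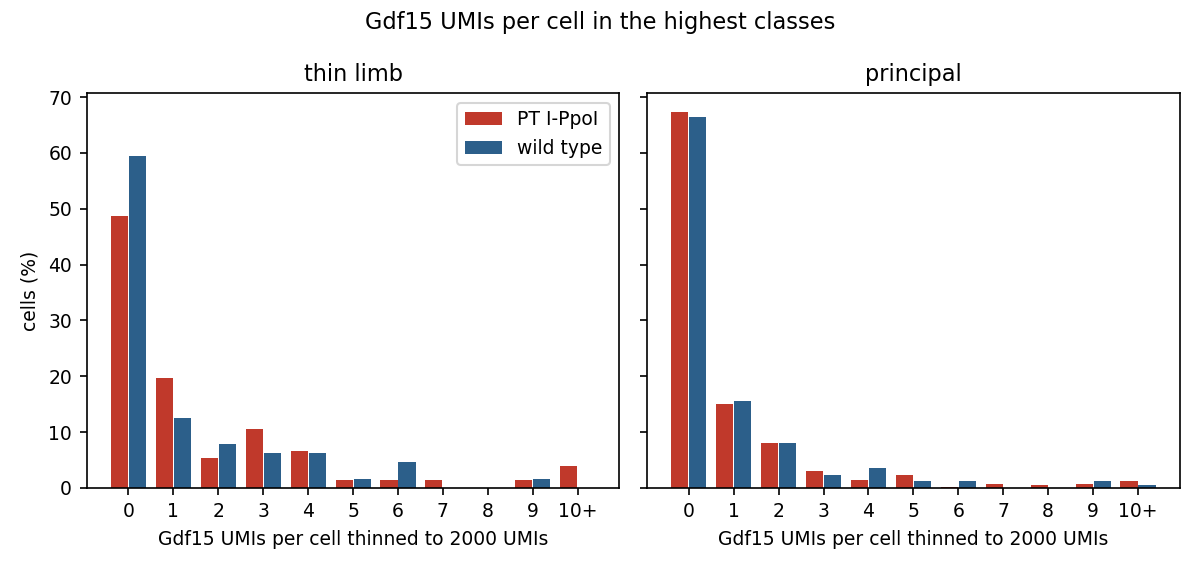
Percentage of thin limb (left) and principal (right) cells by their number of Gdf15 UMIs after thinning to 2000 UMIs per cell, PT I-PpoI left and wild type right of each pair. Among principal cells, 67.3% in PT I-PpoI hold none, against 66.5% in wild type, and a tail of cells with several UMIs appears in both libraries.

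Principal cells fell into 2 clusters that differed in Gdf15 by more than the libraries did. Cluster 18, led by the water channel gene Aqp4 and by Fxyd4, held 715 CPM (685 to 746) in PT I-PpoI and 744 CPM (688 to 803) in wild type. Cluster 3, led by Mcoln3, Kcne1 and Hsd11b2, held 306 CPM (292 to 321) in PT I-PpoI and 276 CPM (243 to 311) in wild type. Cluster 18 was also richer in Aqp4, at 1841 CPM in PT I-PpoI and 1215 CPM in wild type, against 133 and 67.1 CPM in cluster 3 of these libraries. The log2 ratio of PT I-PpoI over wild type was -0.06 (-0.18 to 0.07) in cluster 18 and 0.15 (-0.04 to 0.35) in cluster 3, so both intervals spanned 0. The interval of cluster 18 overlapped that of thin limb cells in PT I-PpoI and lay above it in wild type. In cluster 3 the summed PT markers stood at 61.3 CPM in PT I-PpoI and 5490 CPM in wild type, and their part in the Gdf15 ratio was not tested.

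DCT cells also split by Gdf15. Cluster 31 was led in part by the immediate early genes Fosb and Cyr61 and by Ier3, and held 78.2 CPM (53.8 to 110) in PT I-PpoI and 65.5 CPM (42.8 to 95.9) in wild type. Cluster 14, with the other DCT cells, held 5.996 CPM (4.44 to 7.93) in PT I-PpoI and 6.08 CPM (2.44 to 12.5) in wild type. Fos stood at 3177 CPM in cluster 31 and 22.5 CPM in cluster 14 in PT I-PpoI, and at 2483 and 90.3 CPM in wild type. Cluster 31 made up 38 of 571 DCT cells in PT I-PpoI and 56 of 315 in wild type. The DCT class ratio, -1.17 (-1.76 to -0.53) in log2, thus went with a different share of cluster 31, and within cluster 31 the log2 ratio was 0.25 (-0.53 to 1.06).

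Within PT cells the most Gdf15 lay in cluster 7, led by genes of the early proximal tubule such as Slc5a2 and Slc5a12. It held 36.1 CPM (26.9 to 47.4, 106 cells) in PT I-PpoI and 30.1 CPM (26.5 to 34.0, 811 cells) in wild type. Clusters 23 and 24, led by the later-segment genes Slc22a6 and Cyp2e1 among others, held no UMI in 11 cells and 9.84 CPM in 9 cells in PT I-PpoI, and 17.7 CPM (14.1 to 21.9) and 13.6 CPM (11.5 to 16.1) in wild type. Different clusters made up the class in each library, since cluster 7 held 106 of 167 PT cells in PT I-PpoI and 811 of 5928 in wild type. The PT markers, summed over the class, stood at 25497 CPM in PT I-PpoI, against 51136 CPM in wild type. The class log2 ratio of 0.74 (0.32 to 1.12) compares with 0.27 (-0.20 to 0.70) within cluster 7.

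An unnamed cluster, number 12, was also rich in Gdf15. It was led by the urea transporter gene Slc14a1 and the water channel gene Aqp1 and carried 14 of 14 endothelial markers, at a sum of 11761 CPM in PT I-PpoI and 9414 CPM in wild type. None of the 14 was among its 10 leading genes while a marker of another class was, so the naming rule gave it no class. Gdf15 stood at 347 CPM (312 to 385) in its 86 cells of PT I-PpoI and 472 CPM (425 to 523) in its 309 cells of wild type. The median depth there was 8721 UMIs in PT I-PpoI and 1274 UMIs in wild type. Cells of PT I-PpoI with a UMI held a median of 10 Gdf15 UMIs, and those of wild type 3.5. Gdf15 UMIs were uneven over the wild type cells of this cluster. At resolution 2 these split into 156 cells with no Gdf15 UMI and 153 cells with all 371. The 10% of wild type cells with the most UMIs held 95.7% of them, without any correction for cell depth. The split cannot tell cells without Gdf15 from shallow cells, since 192 of the 309 were too shallow for thinning. Gdf15 was also not left out of the clustering. Among the 117 wild type cells thinned to equal depth, 71.8% held no Gdf15 UMI and 17.9% held 2 or more. Of the 3 named endothelial clusters, 11 and 9 held 0.599 and 6.70 CPM in PT I-PpoI, against 0.955 and 0.831 CPM in wild type. Cluster 13 held 118 CPM (88.8 to 154) in PT I-PpoI, or 9.28 CPM without its top cell, and no UMI in 255 cells of wild type, where 3 counts would be 4.39 CPM.

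Most Gdf15 of the intercalated class sat in cells that also carried Aqp2, the defining gene of principal cells. Cells with 10 or more Aqp2 UMIs numbered 93 of 352 in PT I-PpoI and 65 of 255 in wild type, and held 89.5% and 96.2% of the class's Gdf15 UMIs. The other intercalated cells held 6.73 CPM (4.78 to 9.20) in PT I-PpoI and 5.70 CPM (2.73 to 10.5) in wild type. Per 100 Aqp2 UMIs, intercalated cells held 5.57 Gdf15 UMIs in PT I-PpoI, against 4.62 in wild type, and principal cells held 3.90 in PT I-PpoI, against 4.15 in wild type. Whether these cells are doublets that the doublet filter missed was not tested.

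Between the libraries, the 2 highest classes differed little. The log2 ratio of PT I-PpoI over wild type was 0.31 (0.16 to 0.47) in thin limb cells and -0.17 (-0.27 to -0.06) in principal cells. Neither direction was firm. With the libraries clustered separately the ratio became -0.08 in thin limb cells and 0.36 in principal cells, where 119 CNT cells of wild type joined the principal class. There 20 TAL cells of PT I-PpoI, with 49 Gdf15 UMIs, joined the thin limb class. As a mean over cells the log2 ratio was 0.54 in thin limb and 0.26 in principal cells. Parietal cells had a ratio of 0.49 (0.17 to 0.84). In separate clustering 98 of their 101 wild type cells, with all 103 Gdf15 UMIs, took the urothelial name, so no parietal ratio could be had there. CNT cells had a ratio of 0.53 (-0.02 to 1.16), an interval that spans 0.

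Low classes showed larger ratios on fewer UMIs. TAL cells had a log2 ratio of 2.27 (1.46 to 3.35), from 242 UMIs in PT I-PpoI, against 11 in wild type. Of the 242, 33 sat in 1 cell that also carried 8 UMIs of the thin limb marker Bst1. In separate clustering 20 of these TAL cells, with 49 Gdf15 UMIs, took the thin limb name. Macrophages had a log2 ratio of 1.61 (0.85 to 2.45). Endothelial cells had 3.87 (2.62 to 5.94), from 84 and 4 UMIs, and 50 of the 84 sat in 1 cell. Without the top cell of each library the endothelial levels were 5.29 CPM in PT I-PpoI and 0.597 CPM in wild type. Mural cells had 3.19 (1.76 to 5.72), from 47 and 3 UMIs, and 24 of the 47 sat in 1 cell that also carried 72 Aqp2 UMIs. Intercalated cells had -0.91 (-1.14 to -0.67), a ratio that rests mostly on the cells with 10 or more Aqp2 UMIs. The other intercalated cells held 6.73 CPM (4.78 to 9.20) in PT I-PpoI and 5.70 CPM (2.73 to 10.5) in wild type.

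The mural and endothelial directions turned with the class boundaries. When 17 wild type cells of cluster 21, led by Acta2 and Tagln and holding 63 Gdf15 UMIs, joined the mural class at resolution 2, the mural ratio was -0.65. When 181 wild type cells of cluster 12 joined the endothelial class in separate clustering, the endothelial ratio was -2.34.

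**Figure D4:**
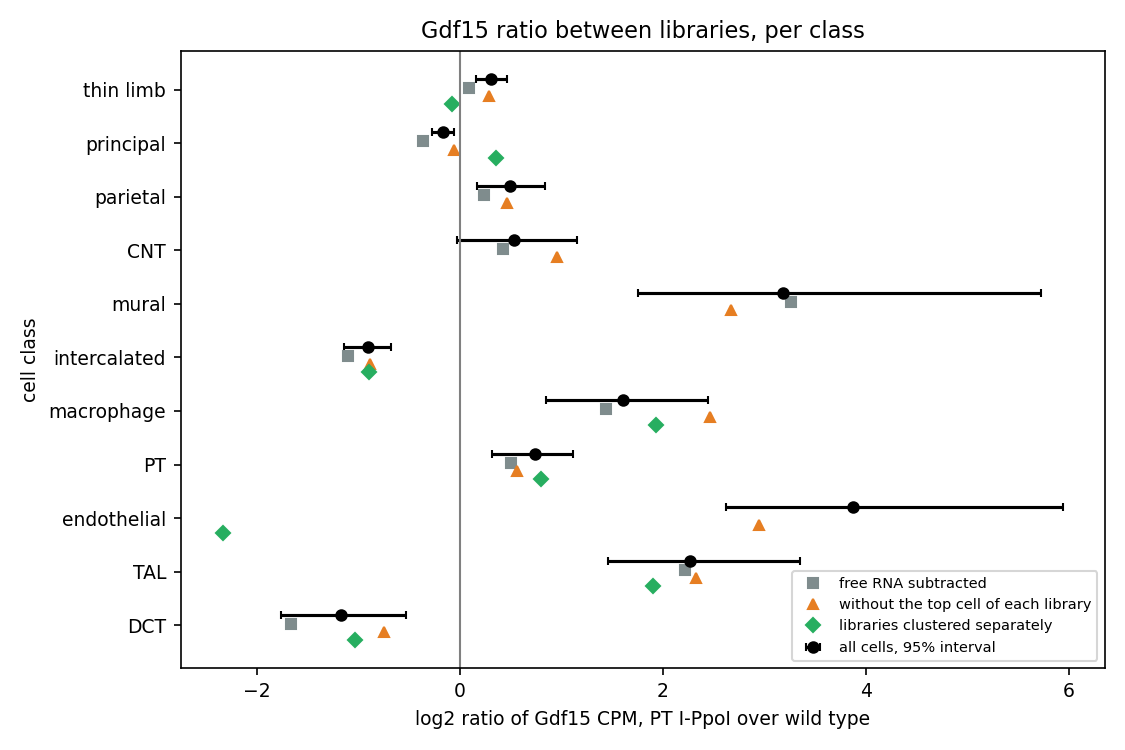
Log2 ratio of Gdf15 CPM, PT I-PpoI over wild type, per class with UMIs in both libraries. Black circles with bars give all cells with the exact 95% interval, squares free RNA subtracted, triangles the value without the top cell of each library, and diamonds separate clustering. Thin limb and principal cells sit near 0, and the endothelial value runs from 3.87 to -2.34.

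Free RNA also differed between the libraries. RNA outside cells gives UMIs to every droplet, and Gdf15 stood at 60.5 CPM in the free RNA of PT I-PpoI and 6.82 CPM in that of wild type. This first profile took the barcodes of depth rank 45001 to 90000. Their median depth was 61 UMIs in PT I-PpoI and 256 UMIs in wild type, so the barcodes compared were unlike in depth. In barcodes of 100 or fewer UMIs Gdf15 stood at 70.7 CPM in PT I-PpoI and 27.5 CPM in wild type. The free RNA share of a class's UMIs, estimated from markers of other compartments, was lower in PT I-PpoI in all 13 classes with 50 or more cells per library. It was 4.20% in thin limb, 8.08% in principal, 3.27% in PT and 4.66% in TAL cells of PT I-PpoI, against 17.7%, 19.2%, 17.9% and 9.22% in wild type.

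By this estimate free RNA would give 0.338% of the Gdf15 UMIs of thin limb cells and 1.09% of those of principal cells in PT I-PpoI, against 0.199% and 0.261% in wild type. It would give 21.8% of those of TAL cells in PT I-PpoI, against 24.3% in wild type, and 28.2% of those of endothelial cells in PT I-PpoI, against 100% in wild type. With it subtracted, PT cells held 27.9 CPM in PT I-PpoI and 19.8 CPM in wild type, and TAL cells 10.6 and 2.15 CPM. With the profile of the shallowest barcodes, free RNA would give 22.7% of the Gdf15 UMIs of TAL cells in PT I-PpoI and all of them in wild type, and 30.3% of those of mural cells in PT I-PpoI and all of them in wild type. These percentages were capped at 100%, and this profile expected more than was read in some wild type classes. It expected 24.6 Gdf15 UMIs in wild type endothelial cells, where 4 were read, and 5.46 in T cells, where none was read. It thus does not settle whether the wild type TAL and mural UMIs were free RNA. With the first profile the thin limb ratio became 0.09 and the principal ratio -0.36. The part of free RNA in the differences between libraries was not tested beyond this subtraction.

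Over all kept cells, Gdf15 stood at 102.5 CPM in PT I-PpoI and 48.7 CPM in wild type, a fold of 2.10. Principal cells gave 12.7% of kept UMIs in PT I-PpoI, against 3.12% in wild type, thin limb cells 2.60% and 1.29%, and PT cells 2.95% and 56.3%. Wild type class levels combined with the class UMI shares of PT I-PpoI gave 105.2 CPM, a fold of 2.16 over wild type. Class levels of PT I-PpoI combined with the class UMI shares of wild type gave 54.6 CPM, a fold of 1.12. Over the 6 other ways of filtering and clustering cells the first fold ran from 1.91 to 2.34 and the second from 1.08 to 1.24. The labels do not say whether class shares reflect the tissue or what the digestion released.

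**Figure D5:**
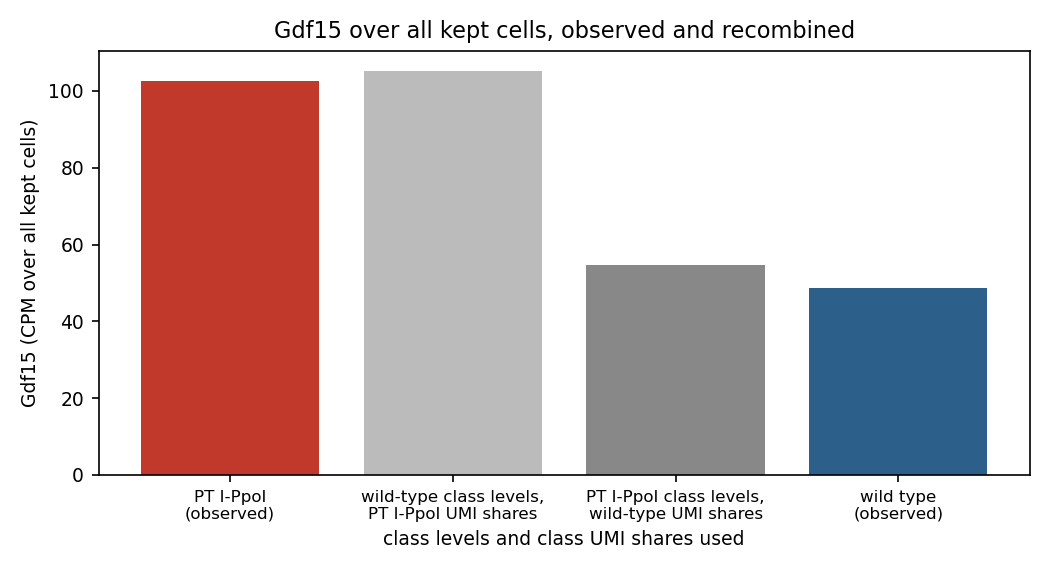
Gdf15 over all kept cells (CPM), observed in PT I-PpoI (left) and wild type (right), and with class levels of one library combined with class UMI shares of the other (centre). Shares of PT I-PpoI with wild type levels give 105.2 CPM, near the 102.5 CPM observed in PT I-PpoI, and the opposite combination gives 54.6 CPM, near the 48.7 CPM observed in wild type.

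The receptor of GDF15 was not read in these cells. Gfral had 0 UMIs in 5096 cells of PT I-PpoI and in 11963 cells of wild type, which allows a share of up to 0.0589% and 0.0251% of cells with a UMI. Ret, the co-receptor, had 25 UMIs in PT I-PpoI, against 9 in wild type, of which 18 and 9 were in endothelial cells. Furin, the convertase gene, was read widely, at 79.9 and 79.7 CPM in principal cells, 60.2 and 73.4 CPM in thin limb cells and 64.3 and 76.5 CPM in PT cells of PT I-PpoI and wild type.

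Lists of stress, injury and pathway genes were set beside Gdf15 in the PT, principal and thin limb classes, first in PT cells. There the ratio of all 13056 genes tested had a median of 0.32 in log2, so values are to be read against it. TMM scaling shifted every PT ratio by -0.30, which put that of Gdf15 at 0.44. Of all genes, 16.1% were past 2-fold higher in PT I-PpoI and 4.94% past 2-fold lower. PT cells held 2036862 UMIs in PT I-PpoI and 33257542 UMIs in wild type. The 0.5 counts added on each side therefore raise the ratios of genes with few UMIs, among all genes and list members alike. Of the p53 targets, 8 of 27 were past 2-fold higher and 0 lower, with a median of 0.51. Plk3, a stress kinase, stood at 15.2 CPM in PT I-PpoI and 2.65 CPM in wild type, and Pmaip1, which encodes the death promoter NOXA, at 34.9 and 10.6 CPM. Cdkn1a, the cell cycle inhibitor p21, had a log2 ratio of 0.90 (0.32 to 1.39), Mdm2, which degrades p53, 0.41 (0.04 to 0.75), and Trp53 0.50 (0.03 to 0.91).

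Of the integrated stress response list, 5 of 25 were past 2-fold higher and 1 lower in PT cells, with a median of 0.37. Ddit4, an inhibitor of mTORC1, stood at 16.2 CPM in PT I-PpoI and 4.09 CPM in wild type, and Phgdh, of serine synthesis, at 64.3 and 16.1 CPM. Ddit3 had a log2 ratio of 0.97 (0.54 to 1.36) and Atf4 0.35 (0.04 to 0.62), while Trib3 had 0 UMIs in PT I-PpoI, against 1 in wild type. Of the immediate early and dissociation list, called the immediate early list below, 21 of 26 were past 2-fold higher and 0 lower, with a median of 1.54. Maff was counted among them from 1 UMI in PT I-PpoI and 9 UMIs in wild type, at 0.491 and 0.271 CPM. Klf4 stood at 24.5 CPM in PT I-PpoI and 1.74 CPM in wild type, and the heat shock gene Hspa1a at 128 and 18.1 CPM, a value that is uncertain because its copy Hspa1b is nearly identical.

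Of the tubular injury list, 13 of 18 were past 2-fold higher and 1 lower in PT cells, with a median of 1.54. Sox4, a transcription factor gene, stood at 39.8 CPM in PT I-PpoI and 5.23 CPM in wild type, while Cryab, a small heat shock protein gene, stood at 19.1 and 76.9 CPM. Of the oxidative stress list, 2 of 13 were past 2-fold higher and 3 lower, with a median of -0.14. Of the mitochondrial stress list 0 of 12 were past it in either direction, with a median of -0.19. Of the receptor, processing and family list, 1 of 10 was past 2-fold higher and 1 lower, with a median of 0.26. Gdf15 itself, at a fold of 1.67, was not past 2-fold. Since the clusters within the PT class differ between libraries, segment and genotype cannot be told apart in these counts.

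In principal cells 3.76% of 12396 genes were past 2-fold higher and 5.91% lower, with a median of 0.0033 in log2. None of the 27 p53 targets or of the 24 integrated stress response genes tested was past 2-fold in either direction, and both lists had a median of 0.07. Atf3, a stress-induced transcription factor gene, stood at 92.1 CPM in PT I-PpoI and 133 CPM in wild type, and Egr1 at 678 and 1062 CPM. Of the immediate early list 3 of 27 were higher, namely Hspa1a, Hspa1b and Rhob, and 1 lower, Socs3, at 10.1 CPM in PT I-PpoI and 83.5 CPM in wild type. The median of that list was -0.19. Of the tubular injury list 0 of 18 were higher and 2 lower, of the oxidative stress list 1 of 13 and 0, of the mitochondrial list 0 of 12 in either direction, and of the receptor and family list 0 of 9 and 3. Their medians were -0.02, 0.20, 0.05 and -0.32.

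In thin limb cells 5.68% of 10494 genes were past 2-fold higher and 3.79% lower, with a median of 0.02 in log2. Of the p53 targets 4 of 22 were higher and 0 lower, among them Plk2, at 35.1 CPM in PT I-PpoI and 14.4 CPM in wild type, and Phlda3, at 31.8 and 13.1 CPM. Cdkn1a had a log2 ratio of 0.13 (-0.27 to 0.56) and Mdm2 0.0029 (-0.66 to 0.74). Of the integrated stress response list 2 of 24 were higher and 0 lower, of the immediate early list 6 of 26 and 0, of the tubular injury list 6 of 18 and 0, and of the mitochondrial list 3 of 12 and 0. Of the oxidative stress list 1 of 12 was higher and 0 lower, and of the receptor and family list 1 of 7 and 2. S100a6, a calcium-binding protein gene, stood at 2682 CPM in PT I-PpoI and 536 CPM in wild type, and Nupr1, a stress-induced chromatin protein gene, at 1573 and 911 CPM. The medians in thin limb cells were 0.02 for p53 targets, 0.40 for the integrated stress response, 0.46 for the immediate early, 0.70 for the injury, 0.20 for the oxidative stress, 0.30 for the mitochondrial and -0.29 for the receptor and family list. Several of these lists share members, for example Atf3 and Sesn2.

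Over both principal clusters pooled, Gdf15 was read more often in cells where Fos, the AP-1 immediate early gene, was read. Cells were thinned to 2000 UMIs, and Fos was added to this comparison after other values had been seen. In PT I-PpoI, 40.9% (35.1 to 47.0) of principal cells with a Fos UMI had a Gdf15 UMI and 17.1% (11.7 to 23.7) of those without. In wild type, these shares were 46.5% (36.4 to 56.8) and 18.9% (10.7 to 29.7). Cells with Fos were also deeper before thinning, at medians of 17563 and 13934 UMIs with and without in PT I-PpoI and 8587 and 5279 in wild type. The intervals with and without Fos did not overlap in either library. Fos also differed between the principal clusters, at 1805 CPM in cluster 18 and 803 CPM in cluster 3 in PT I-PpoI, and at 2192 and 1162 CPM in wild type, and the co-reading was not tested within a cluster. In thin limb cells the shares with and without Fos were 61.8% and 28.6% in PT I-PpoI and 60% and 37.5% in wild type, with intervals that overlapped. Cluster 12 differed, with 25.6% and 13.2% in PT I-PpoI and 16.2% and 33.8% in wild type, where intervals overlapped in each library.

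Atf3 gave a less even picture. In thin limb cells Gdf15 was read in 61.8% (43.6 to 77.8) of cells with an Atf3 UMI and 42.9% (27.7 to 59.0) of those without in PT I-PpoI, and in 77.3% (54.6 to 92.2) and 33.3% (19.6 to 49.5) in wild type. Thin limb cells with Atf3 had been deeper before thinning, at 33596 and 10663 UMIs with and without in PT I-PpoI, against 11735.5 and 4734 in wild type. In principal cells the shares with and without Atf3 were 58.7% and 30.7% in PT I-PpoI, with intervals apart, and 40% and 34.8% in wild type, with intervals that overlapped. For Ddit3 the shares in principal cells were 48.9% and 33.9% in PT I-PpoI and 40% and 33.1% in wild type, with overlapping intervals. In thin limb cells the Ddit3 shares went the other way. They were 11.1% (0.281 to 48.2, 9 cells) with Ddit3 and 53.7% (41.1 to 66.0) without in PT I-PpoI. In wild type they were 33.3% (4.33 to 77.7, 6 cells) and 48.3% (35.0 to 61.8), and intervals overlapped in each library. Cdkn1a, read in 7 and 6 principal cells of PT I-PpoI and wild type, was too sparse there. In cluster 12 Gdf15 was read in 54.5% (23.4 to 83.3, 11 cells) of cells with a Cdkn1a UMI and 16.7% (8.62 to 27.9) of those without in PT I-PpoI. In wild type these shares were 47.4% (24.4 to 71.1, 19 cells) and 23.5% (15.5 to 33.1). Few cells held Cdkn1a, and the intervals overlapped in each library. With and without Mdm2, also a p53 target, the shares there were 14.3% and 21.4% in PT I-PpoI and 25% and 25.7% in wild type.

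The genes whose pattern over the 13 classes was most like that of Gdf15 were ranked by Pearson's r of log2(CPM + 10), taking the lower r of the 2 libraries, among 11343 genes. The first 10 were Ppl, Scx, Adora1, Veph1, Eif1a, Stxbp6, Klf5, Bex1, Apela and Pax2, with a lower r between 0.93 and 0.88. Classes of 1 library share depth and free RNA, so these values describe the pattern and carry no test. Apela, a ligand gene that was also among the principal cell markers, stood at 1800 CPM in PT I-PpoI and 1748 CPM in wild type in thin limb cells, and at 7.36 and 3.22 CPM in PT cells. Pax2, a transcription factor gene of the nephron and collecting duct lineages, stood at 355 CPM in PT I-PpoI and 413 CPM in wild type in thin limb cells. Ppl, which encodes the desmosome-associated protein periplakin, stood at 99.2 and 126 CPM there. With a pseudocount of 1, only Scx and Stxbp6 stayed among the first 10.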

How the data were processed

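For each library the authors deposited an unfiltered table of whole-number UMI counts over 31053 genes; reads were not processed here. Libraries used 10x 3′ chemistry on kidney cortex digested with collagenase and protease, per the labels' protocols. Cell Ranger 3.1, Seurat 3 and mm10 are named, per the submitters' processing notes, while the matrices name Cell Ranger 4, per the file headers. Gdf15, the gene lists and the motifs were chosen with earlier results of these data known.

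Barcodes of 500 or more UMIs were called as cells by depth or by a Monte Carlo test against free RNA (10000 simulations, false discovery rate 0.01). Cells needed 200 genes and at most 50% mitochondrial UMIs. Scrublet (scanpy 1.11.5) marked doublets at a score of 0.25, set after its automatic threshold had marked too few. Both libraries were clustered together (2000 variable genes, 30 components, 15 neighbours, Leiden resolution 1), Gdf15 not being left out. Clusters needed 3 detected markers for a name. UMI counts were summed per class, scaled to CPM, and given with exact Poisson 95% intervals. Shares have exact Clopper-Pearson intervals. Log2 ratios add 0.5 counts, with an exact conditional binomial interval. Lists count genes with 10 or more UMIs over both libraries. Intervals and limits (3 counts) cover counting error only. Named genes were those always given for the pathway, up to 4 per list furthest from 0, and the 10 most like Gdf15. Clusters and genes that lead them were named after their values were seen. The ratio, the free RNA estimate and the thinning were tested on simulated data, and the other steps were not. In the simulated free RNA check, markers of other compartments came from free RNA alone. TMM factors came from edgeR 4.0.16.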

Additional observations from a re-analysis of the deposited data

Results flagged for a closer look

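Barcodes not called as cells, which enter no class level except through the free RNA profiles, held Gdf15 at 56.6 CPM (605 UMIs) in PT I-PpoI and 8.50 CPM (232 UMIs) in wild type, so the PT I-PpoI level stood above that of the wild type library. Called barcodes removed for over 50% mitochondrial UMIs held 3.60 CPM in PT I-PpoI and 2.91 CPM in wild type.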

How the results depend on the processing

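In PT cells the log2 ratio stayed positive and inside its main interval under all 12 alternatives, from 0.44 with TMM factors to 0.96 with Gdf15 left out of the clustering. In principal cells it was -0.27 with cells of 2000 or more UMIs, 0.36 with the libraries clustered separately, -0.36 with free RNA subtracted, -0.39 when that subtraction used the shallowest barcodes, up to 100 UMIs, 0.26 as a mean over cells and -0.059 without the top cell of each library. In thin limb cells it was -0.078 with separate clustering, 0.090 with free RNA subtracted, 0.080 with those shallowest barcodes and 0.54 as a mean over cells. Elsewhere the endothelial ratio was -2.34 with separate clustering, and the mural ratio -0.78 with cells of 2000 or more UMIs, -0.59 with doublets kept and -0.65 at resolution 2; cells of clusters 12 and 21 had changed class there. The PT level was 39.0 CPM in PT I-PpoI, against 21.6 CPM in wild type, with a mitochondrial limit of 30%, and 19.8 CPM in wild type with free RNA subtracted. The principal level in PT I-PpoI was 463 CPM with that limit, 710 CPM (709.5) with doublets kept and 482 CPM with free RNA subtracted. In wild type it was 756 CPM with doublets kept, 343 CPM with separate clustering, 620 CPM (619.6) with free RNA subtracted and 452 CPM without the top cell. With doublets kept, most cells of cluster 3 lost the principal name. The thin limb level in PT I-PpoI was 568 CPM with separate clustering and 668 CPM (668.5) without the top cell, and in wild type 733 CPM with free RNA subtracted and 546 CPM (546.5) without the top cell. Shares of cells with a UMI followed depth. Without thinning they were 15.6% and 5.77% in PT, 63.1% and 54.5% in principal and 77.2% and 64.2% in thin limb cells of PT I-PpoI and wild type. Principal shares were 23.7% and 24.9% at 1000 UMIs and 44.2% and 46.6% at 4000 UMIs. In wild type PT shares were 1.23% at 1000 and 5.79% at 4000 UMIs, and the thin limb share was 65.3% at 4000 UMIs. Without the filter on low counts, the lists past 2-fold in PT cells had 8 higher for the receptor and family list, 8 for the integrated stress response and 4 for oxidative stress. Some genes counted as higher there had 0 UMIs in PT I-PpoI, such as Gdf10, Trib3, Slc7a11 and Gpx2, against 1, 1, 1 and 2 in wild type. The 0.5 counts added to unequal totals put them past 2-fold, so these unfiltered counts do not show higher levels. In principal cells the integrated stress response had 1 higher and 2 lower, p53 targets 2 lower, injury 4 lower and oxidative stress 1 lower. In thin limb cells the receptor and family list had 2 higher, and the integrated stress response, p53 targets and oxidative stress 1 lower each. With TMM factors, PT cells had 1 oxidative stress gene higher and 1 mitochondrial gene lower. The pseudocount of 1 shared 2 of 10 genes most like Gdf15. The causes not named here were not tested. Alternatives that left a class without a name or a UMI gave no value, as for dendritic and T cells. Gdf15 left out of the clustering, and levels without the top cell, were added after seeing the data. No paired analysis was possible because each group has 1 library. Depth limits the low classes most, since mural and endothelial cells of wild type held 3 and 4 Gdf15 UMIs.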

Other observations

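Gdf15 UMIs were also read in small clusters outside the 13 classes. Cycling cells held 118 CPM (91.4 to 150) in 31 cells of PT I-PpoI and 35.1 CPM (9.56 to 89.9) in 18 cells of wild type, and 65 of the 67 UMIs of PT I-PpoI sat in 2 cells that also carried 10 or more Aqp2 UMIs. Urothelial cells held 13.0 CPM (8.21 to 19.4) in 77 cells of PT I-PpoI and no UMI in 16 cells of wild type, where 3 counts would be 25.1 CPM. Of the 23 urothelial UMIs of PT I-PpoI, 17 sat in 5 cells with 10 or more Aqp2 UMIs, the other cells held 4.14 CPM, and the free RNA estimate for the class, at 37.8 UMIs, was above its total. Cluster 21, found in wild type with 17 cells, held 272 CPM (209 to 348), with Acta2 at 1999.6 CPM and Aqp2 at 587 CPM. Neutrophils held no Gdf15 UMI in 41 cells of PT I-PpoI or 23 cells of wild type.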
